A study of Mus musculus with 2 samples.

Results

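Mir191 and Mir425 are 2 miRNA genes that lie side by side on the plus strand of mouse chromosome 9, and they were examined here among the 1973 miRNA genes counted in newborn skeletal muscle. Small RNA libraries were made from total RNA of muscle from 2 B6NCrl pups of 1 litter at postnatal day 0, and the labels give neither a treatment nor a genotype beyond the strain. Sex was not collected. Both pups belong to 1 group, so only differences between pup 1 and pup 2 could be examined. Pup 1 held 3754895 counts on the strand of the listed miRNA genes and pup 2 held 5133949.

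The members were chosen by their place in the genome and by their measured counts. Mir191 has no row of its own in the deposited tables. The table lists Gm24083, a miRNA gene annotated on the minus strand over the same bases, and Mir191 was read from the counts on the strand opposite Gm24083. This column was selected on its values, because Gm24083 had 0 counts on its own strand in both pups and many on the other. Mir425 was read from its own strand. The levels below are therefore a description and carry no test.

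A miRNA gene is transcribed as a longer RNA that folds into a hairpin, and the hairpin is cut into a mature product of about the length of a sequenced small RNA read, from its 5′ arm, its 3′ arm or both. The seed, bases 2 to 8 of the mature product, sets most of the pairing with target mRNAs. miR-191 is found in many tissues and is often used as a reference in small RNA assays, and in mouse red blood cell precursors it has been linked to the control of enucleation. miR-425 is usually described as its partner from a shared primary transcript.

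The mature sequences are shown because they separate the members of the locus, with the seed in capitals and all written 5′ to 3′ (RefSeq, build GRCm38.p6).
mmu-miR-191-5p: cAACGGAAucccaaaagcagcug
mmu-miR-191-3p: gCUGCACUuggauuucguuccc
mmu-miR-425-5p: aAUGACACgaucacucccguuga
mmu-miR-425-3p: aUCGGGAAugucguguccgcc
mmu-miR-489-3p: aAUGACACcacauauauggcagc

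The 4 products of the locus carried 4 different seeds. The seeds of both miR-191 products and of miR-425-3p were found in 0 other mature miRNAs of the RefSeq table. The seed of miR-425-5p was found in 1, miR-489-3p from Mir489 on chromosome 6, a miRNA that in mouse has been linked to quiescence of muscle stem cells. Set from their 5′ ends, miR-425-5p and miR-489-3p were identical at 12 of 23 positions. Past base 8 they were identical at only 4 of 15.

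The hairpins show where the products sit, with the mature arms in capitals.
Mir191 hairpin: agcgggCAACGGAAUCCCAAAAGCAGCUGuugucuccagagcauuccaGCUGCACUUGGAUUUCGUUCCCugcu
Mir425 hairpin: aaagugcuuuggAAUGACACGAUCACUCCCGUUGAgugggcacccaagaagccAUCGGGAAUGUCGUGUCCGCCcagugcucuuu

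The Mir191 hairpin has 74 bases and lies at chr9:108568319-108568392 (mm10, plus strand). The Mir425 hairpin has 85 bases and lies at chr9:108568777-108568861, with 384 bases between the 2. Their base composition was nearly the same, 54.1% G and C in each, against a median of 51.7% over 1005 mouse hairpins. The predicted folding energy per base, which is more negative for a tighter fold, was -0.473 kcal/mol for Mir191 and -0.373 kcal/mol for Mir425. The median hairpin had -0.406 kcal/mol, so the 2 hairpins fell on either side of it. Each was predicted to form 28 base pairs. Neither hairpin shared more than 12 consecutive bases with any of the other 1004, on either strand, while the mature products are 21 to 23 bases long.

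The place of the pair depended on the annotation. The pair is commonly assigned to Dalrd3, a gene whose human product takes part in tRNA methylation. In GENCODE M21, Dalrd3 begins at base 108569886, 1494 bases past the end of Mir191 and 1025 bases past the end of Mir425, so both miRNA genes lie outside it. There both overlap 4833445I07Rik, a lincRNA gene on the same strand (chr9:108567533-108569174) whose start lies 99 bases from the start of the oppositely directed Ndufaf3, a gene for a mitochondrial complex I assembly factor. In the longer of its 2 transcripts, which has 1 exon, both hairpins are exonic. In the shorter transcript Mir191 is intronic and Mir425 lies beyond its end. In RefSeq the span of Dalrd3 begins at base 108567484, 835 bases before Mir191, and covers both.

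Gm24083 (chr9:108568295-108568414, minus strand) is 120 bases long and extends 24 bases before and 22 bases past the Mir191 hairpin. The exact reverse complement of the Mir191 hairpin was found in its transcript. In the sense direction the Mir191 hairpin was found in 2 annotated transcripts, its own and the longer one of 4833445I07Rik, and the same held for Mir425.

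**Figure D1:**
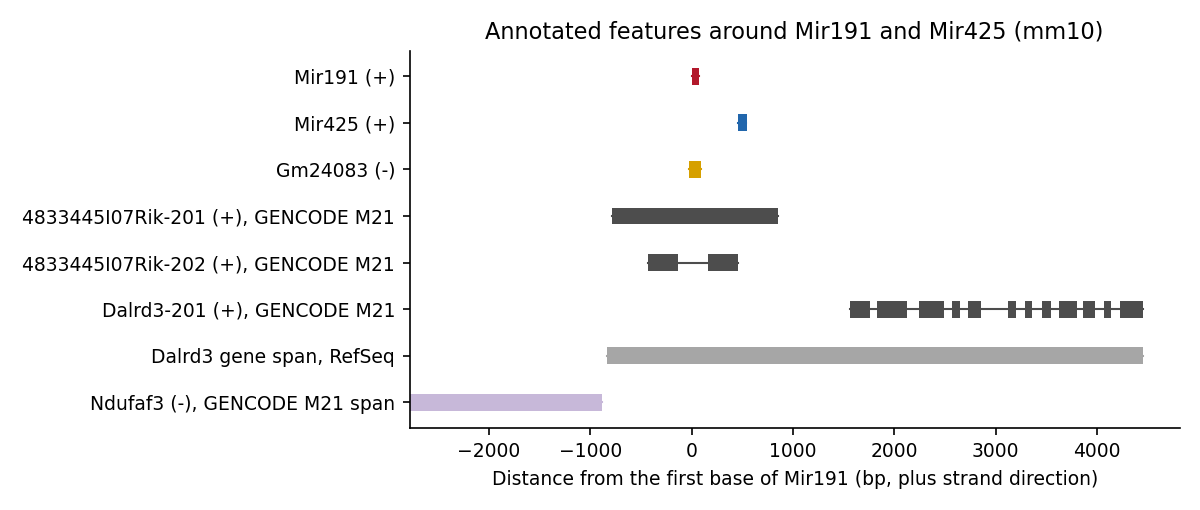
Features annotated around the pair, drawn to scale by distance in bases from the first base of Mir191. Boxes are exons or gene spans, thin lines are introns, and Ndufaf3 is drawn over its whole span. Both miRNA genes fall inside the longer 4833445I07Rik transcript and inside the RefSeq span of Dalrd3, but before the first exon of Dalrd3 in GENCODE M21, and Gm24083 covers Mir191 on the other strand.

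Mir191 was the more abundant of the 2. It had 8627 counts in pup 1 and 10626 counts in pup 2. In counts per 1000000 own-strand counts of the library (CPM), this was 2298 in pup 1 (95% Poisson interval 2249 to 2347) and 2070 in pup 2 (2031 to 2109). Its mean was 2184 ± 161 CPM (SD, n = 2), and the spread was 7.38% of the mean. Gm24083 itself had 0 counts in both, which allows up to 0.799 CPM in pup 1 and 0.584 CPM in pup 2.

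Mir425 had 4438 counts in pup 1 and 4603 in pup 2. Its level was 1182 CPM in pup 1 (1147 to 1217) and 897 CPM in pup 2 (871 to 923). The mean was 1039 ± 202 CPM (SD, n = 2), and the spread was 19.4% of the mean. The opposite strand of Mir425 had 0 counts in both pups. Both miRNAs were thus read from the plus strand alone, the strand of the mature products shown above. Values of the 2 genes do not overlap, since the lower value of Mir191 lies above the higher value of Mir425.

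The counts are per gene and do not separate the 5p from the 3p product. A read covers about a whole mature product, so counts were not divided by length, and the 5p products of both genes have 23 bases. Intervals cover counting error only. In whole tissue, fewer cells of a type and less RNA per cell cannot be told apart.

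**Figure D2:**
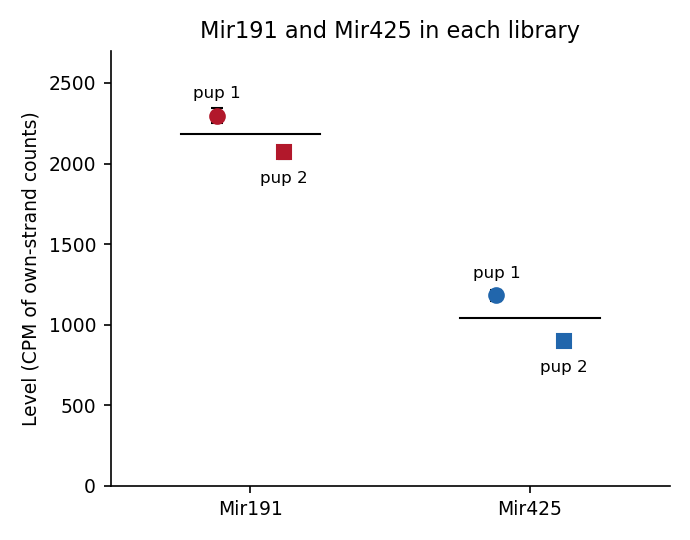
Level of Mir191 and Mir425 in CPM of own-strand counts for pup 1 (circles) and pup 2 (squares), with 95% Poisson intervals and a line at the mean of both libraries. Mir191 sits at 2298 and 2070 CPM and Mir425 at 1182 and 897 CPM, so the genes do not overlap.

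Within each library the depth cancels from the ratio of the 2 genes. Mir191 had 1.94 times the count of Mir425 in pup 1 and 2.31 times in pup 2. On the log2 scale this was 0.96 in pup 1 and 1.21 in pup 2, a mean of 1.08 ± 0.18 (SD, n = 2). Mir191 held 66.0% of the counts of the pair in pup 1 (exact Clopper-Pearson 95% interval 65.2 to 66.8) and 69.8% in pup 2 (69.0 to 70.5). The intervals do not overlap, so the balance of the pair differed between the pups by more than counting error. With 1 library per pup, a difference between animals and one between preparations cannot be told apart.

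The seed-sharing Mir489 was far lower. It had 9 counts in pup 1 and 10 in pup 2, a mean of 2.17 CPM, so Mir425 exceeded it 493-fold in pup 1 and 460-fold in pup 2. Nearly all counts at genes with this seed therefore came from Mir425 in these libraries.

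In the order of mean levels Mir191 stood at place 62 and Mir425 at place 88 of the listed genes. This order leaves out reads mapping to several places, so genes that share a product with another gene can stand too low in it. A total of 312 genes had at least 10 counts in both libraries, with a median of 179 CPM, and 250 of them lay below Mir191 and 224 below Mir425. The place of Mir191 was 61 in pup 1 and 60 in pup 2. Mir425 took place 85 in pup 1 and 92 in pup 2. Other miRNA genes are likewise absent from the list and visible only opposite a listed gene. Counting these as well put Mir191 at place 67 and Mir425 at place 94, and Mirlet7e, read opposite Gm25927, then fell next below Mir191 with 1986 CPM.

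The nearest gene above Mir191 was Mir151, with 2303 CPM in pup 1 and 2079 CPM in pup 2, values that overlap those of Mir191. Above it stood Mir203, a skin miRNA, with 4356 and 183 CPM in pups 1 and 2, and Mir376c with 2287 and 2775 CPM. Their library values also overlap those of Mir191. Below came Mir10a, of a Hox cluster, with 2141 CPM in pup 1 and 1764 CPM in pup 2, which overlap those of Mir191. Mir423 had 1994 and 1798 CPM in pups 1 and 2, and Mir27b had 1790 and 1917 CPM. These last 2 lay below both values of Mir191.

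Around Mir425 the order was not resolved. The next above were Mir361 with a mean of 1135 CPM, Mir18 of the Mir17 cluster with 1149 CPM, and Mir455, a cartilage-linked miRNA, with 1182 CPM. The next below were Mir615 of a Hox cluster with 1031 CPM, Mir93 of the Mir106b cluster with 1029 CPM, and Mir676 with 1019 CPM. The library values of all 6 overlapped those of Mir425.

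**Figure D3:**
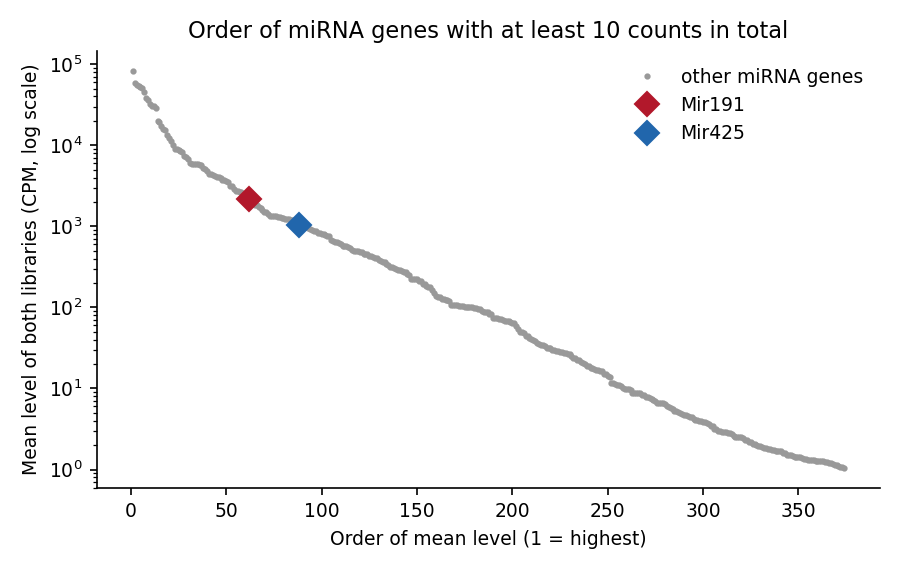
Mean CPM of both libraries on a log axis against the order of the mean, for the 374 genes with at least 10 counts in total. Mir191, at place 62 with 2184 CPM, and Mir425, at place 88 with 1039 CPM, lie in the upper part of the curve.

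The pups were then compared after TMM scaling, which sets the 2 libraries on a common scale from the bulk of the genes. Mir191 was nearly level between them, with a log2 ratio of pup 1 over pup 2 of 0.019, a 1.01-fold difference (exact binomial test, two-sided, adjusted p = 0.518 over 374 genes). Mir425 was higher in pup 1, with a log2 ratio of 0.27 or 1.20-fold (same exact test, adjusted p = 8.12e-18). The test compares 2 libraries against counting error and not 2 conditions. By this rule 23.3% of the 374 genes were higher in pup 1 and 48.9% differed in either direction, so 1 of 2 members passing is close to the background. With at least 2-fold required as well, 5.08% of genes passed and 0 of the 2 members did. With scaling by total counts alone the median log2 ratio of the genes tested was 0.13, against -0.0038 under TMM, and Mir191 then passed the threshold with a log2 ratio of 0.15, which is close to that shift. Under that scaling 65.0% of the calls were higher in pup 1, against 47.5% under TMM.

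Among the 116 genes with a mean of at least 500 CPM, a level set after the values were seen, the size of the log2 ratio was smaller than that of Mir191 in 7 and larger in 108. The median size in these genes was 0.23. For Mir425 it was smaller in 65 genes and larger in 50. Under TMM scaling Mir191 thus lay near the low end of the differences between the pups, and Mir425 near the middle. The median signed log2 ratio of these genes was -0.094, and the order was not repeated under other scaling.

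Other miRNA genes used as reference genes in small RNA assays were set beside the pair. Of a list of 18, 17 had a row, and Mir24-1 was visible only opposite Mir3074-1, with 144 counts in pup 1 and 223 in pup 2. Beyond counting error 6 of the 17 were higher in pup 1, 3 were lower and 8 did not pass, and 0 differed 2-fold (exact binomial test). Of all 374 genes tested, 48.9% differed in either direction and 5.08% did so by at least 2-fold, so these counts are close to those shares. The first share rose with the number of counts required, as given above. The median log2 ratio was 0.017 over the list and -0.0038 over all genes tested, and the median size was 0.21 against 0.32. Over the genes with a mean of at least 500 CPM the median size was 0.23, close to that of the list, which also holds genes below that level. The most abundant of the list were Mir30e with a mean of 6716 CPM and a log2 ratio of 0.24, Mir151 with 2191 CPM and 0.015, and Mir423 with 1896 CPM and 0.017. Mir151 and Mir423 had a smaller log2 ratio than Mir191 in size, and the other 15 a larger one. For Mir425 11 of the 17 had a smaller one. In 7 of the 17 a mature product is also found in another hairpin, so their counts are uncertain.

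Marker miRNAs of several cell types moved between the same libraries. Over all 374 genes tested, 87 were higher in pup 1 and 96 lower, and 17 were higher by at least 2-fold. The 7 epithelial and skin genes summed to 5688 CPM in pup 1 and 230 CPM in pup 2, and all 7 were higher in pup 1 by more than 2-fold. Their most abundant genes were Mir203, Mir205 and Mir429, with log2 ratios of 4.44, 5.42 and 4.13. The cartilage gene Mir140, the 1 gene of its list, had 6539 CPM in pup 1 and 966 CPM in pup 2, a log2 ratio of 2.63. The cartilage-linked Mir455, which was not on the list, had 1377 CPM in pup 1 and 986 CPM in pup 2, a log2 ratio of 0.35. The 2 red blood cell genes summed to 416 CPM in pup 1 and 299 CPM in pup 2, with Mir451a higher in pup 1 (log2 ratio 0.57) and Mir144 lower (-0.34).

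The 3 white blood cell genes with a row, Mir223, Mir155 and Mir150, summed to 585 CPM in pup 1 and 400 CPM in pup 2, and 1 of them, Mir223, was higher in pup 1 (0.46). Mir142, read opposite Mir142b, had 852 CPM in pup 1 and 599 CPM in pup 2. The 7 striated muscle genes with a row, which define the labelled tissue, summed to 81273 CPM in pup 1 and 89272 CPM in pup 2. Of these, 0 were higher and 4 lower in pup 1, led by Mir206 (-0.27), Mir133b (-0.48) and Mir499 (-0.26). Among all 374 genes tested, 96 were lower in pup 1. Mir1a-1 had 24 counts in pup 1 and 46 in pup 2, and Mir1a-2 was visible only opposite Mir1b, with 59 counts in pup 1 and 72 in pup 2. Reads mapping to several places were credited to no gene. These counts and sums can therefore fall short where genes share a product, and low counts do not show that a product is scarce. The endothelial gene Mir126a had 40785 CPM in pup 1 and 36558 CPM in pup 2, a log2 ratio of 0.026. Small as it is, this ratio passed as higher in pup 1 (exact binomial test, adjusted p = 5.88e-07), at 153145 and 187689 counts in pups 1 and 2. No marker gene with a row was at 0 in either pup. The part of these cells in the difference of Mir425 was not tested.

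**Figure D4:**
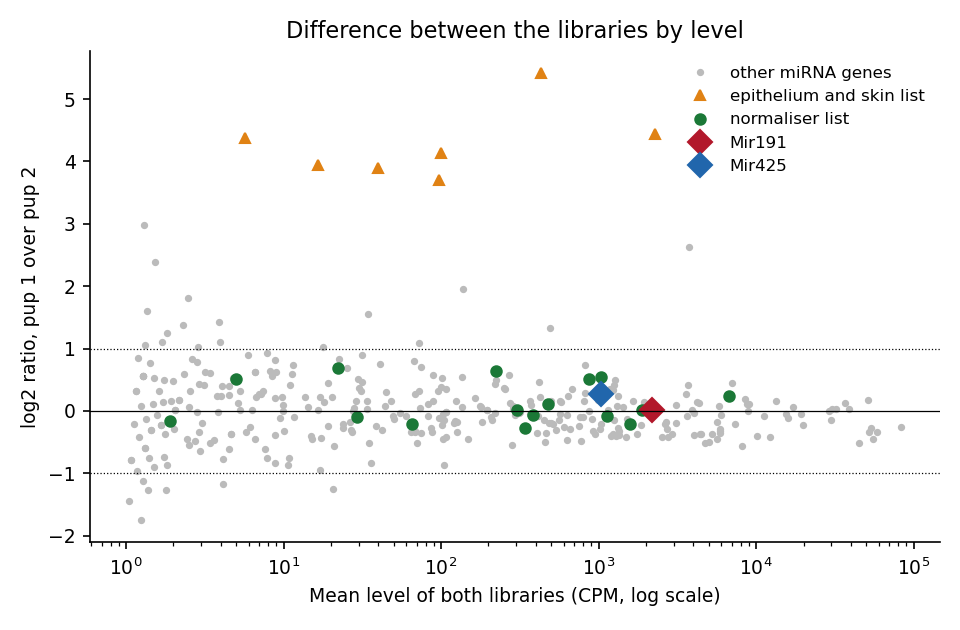
log2 ratio of pup 1 over pup 2 after TMM scaling against the mean CPM (log axis), with Mir191, Mir425, the normaliser list and the epithelial and skin list marked; dotted lines show 2-fold. Mir191 sits at 0.019 and Mir425 at 0.27, both inside the 2-fold lines, while the 7 epithelial and skin genes lie above 3.7.

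The pair was last set beside other pairs of neighbouring miRNA genes, taken as consecutive genes on 1 strand that start within 10 kb and have at least 10 counts in both libraries. There were 102 such pairs, 43 of them on chromosome 12. Mir191 was the only gene here read from the strand opposite a listed gene. Other genes visible only that way were skipped, so some pairs are not direct neighbours. The order of level ratios was not repeated with those genes counted. Mir191 and Mir425, whose starts are 458 bases apart, were closer in level than most. Their mean log2 ratio of 1.08, as the 5′ gene over the 3′ gene, was smaller in size than that of 81 of the other 101 pairs and larger than that of 20. The median size over the other pairs was 3.03. Reads mapping to several places were credited to no gene, so a pair with a gene whose product is also made elsewhere can look wider apart. How far this raised the median was not tested.

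In the order of the signed log2 ratio, the pairs next to it were Mir494 over Mir679 (1.10), Mir183 over Mir96 (1.20) and Mir181c over Mir181d (1.25) on the higher side. On the lower side were Mir329 over Mir494 (1.08), Mir298 over Mir296 (1.00) and Mir532 over Mir188 (0.99). The pups differed in the log2 ratio of Mir191 over Mir425 by -0.25, as pup 1 minus pup 2. The size of this change was larger than in 62 of the other 101 pairs and smaller than in 39, and their median was 0.17. Many pairs lie in 1 cluster on chromosome 12 and share genes. Among the 58 other pairs outside chromosome 12 the median was 0.27, and 29 of them changed less.

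**Figure D5:**
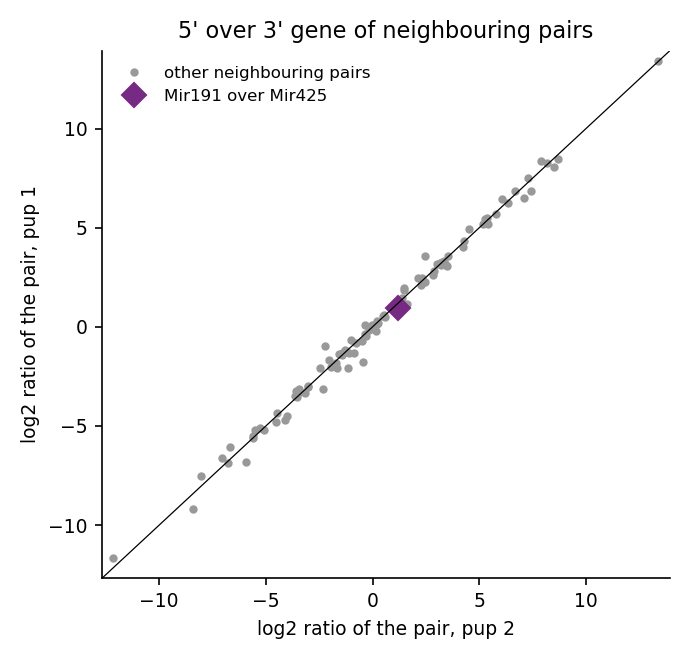
log2 ratio of the 5′ gene over the 3′ gene of 102 neighbouring pairs, pup 1 on the vertical axis and pup 2 on the horizontal axis, with the line of equality. Mir191 over Mir425 lies at 0.96 in pup 1 and 1.21 in pup 2, slightly below the line.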

How the data were processed

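The deposited values were read counts per miRNA gene in 3 columns, on build mm10 with annotation M4 per the deposited descriptions of the files. The aligner and the counting program are not given in the sources used here. The columns have no header. In every gene the first equals the sum of the others, and they were read as counts on either strand, the gene's own strand and the opposite strand. Reads mapping to several places, 30.2% in pup 1 and 29.9% in pup 2, and the other lines naming no gene stayed out of library sizes. CPM used the own-strand total.

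Names came from GENCODE M21, which matched 1894 of 1973 identifiers; the other 79 had at most 4 counts per library. Ratios added 0.5 to each count and were scaled by TMM factors of 1.05 for pup 1 and 0.955 for pup 2 (edgeR 4.0.16, R 4.3.3). Genes with at least 10 counts in total entered a two-sided exact binomial test (scipy 1.17.1); p-values were adjusted by Benjamini-Hochberg and called at 0.05, where stated with a 2-fold minimum. Hairpins were folded with ViennaRNA 2.7.2. The test was tried on counts simulated with set fold changes and counting error alone. That trial does not cover spread between animals or preparations. The chi-square per degree of freedom between the libraries was 281, so they were not copies. Nothing beyond the pup separates them in the labels, so p-values measure only the spread in counting. Alternatives were scaling by total counts or by DESeq2 1.42.0 size factors, other filters, pseudocounts, denominators and strand choices.

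Members and lists were chosen with earlier results of these data known. Genes named are the members, the 3 next above and below each in mean CPM, the 3 pairs next above and below the pair, genes sharing a seed or lying at the locus, and the 3 most abundant of each list. Mir142, Mir24-1, Mir1a-1, Mir1a-2 and Mirlet7e were named after their values were seen.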

Additional observations from a re-analysis of the deposited data

How the results depend on the processing

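Of 41 alternative values, 37 were labelled the same as the main value. For ratios between the pups this meant the same direction and side of the threshold. For levels and the pair it meant within 1 SD between the libraries, and for counts of genes called within a fixed factor. Some of the 37 could not have moved: leaving out 1 library, counting both strands for the pair ratio, and changing which other pairs were taken. Adding 5 to each count could not change the p-values of the members, because the exact binomial test uses the raw counts. The filters on low counts could not change the log2 ratios of the members and acted only through the adjustment. With all reads as the denominator the mean level was 1138 CPM for Mir191 and 542 CPM for Mir425, and with the counts of both strands it was 1951 CPM for Mir191, because those denominators are larger. With total-count scaling Mir191 had a log2 ratio of 0.15 (exact binomial test, adjusted p = 2.45e-12), because all ratios shift alike; over its alternatives the adjusted p ran from 2.45e-12 to 0.736. Mir425 had log2 ratios from 0.27 to 0.40 and passed the threshold in all alternatives run. Genes called beyond counting error numbered 177 to 194 around 183, and 13 to 22 around 19 with the 2-fold minimum. The number of genes tested ran from 283 to 654 around 374, so the share called was not stable. With no filter on low counts 177 of 654 genes were called, and with at least 50 counts 179 of 283. Leaving out 1 library gave 2070 to 2298 CPM for Mir191, 897 to 1182 CPM for Mir425 and 0.96 to 1.21 for the log2 ratio of the pair; from 2 libraries, either one alone cannot fall further than 1 SD from their mean, so this range says nothing of stability. Added after seeing the data, pairs within 1 kb (58 others) had a median change of 0.18 and pairs with all opposite-strand loci counted (112 others) 0.16, against 0.25 for Mir191 and Mir425. No paired analysis was possible because both libraries belong to 1 group. With 1 library per pup the spread between repeat libraries is unknown, and Mir489, with 9 counts in pup 1 and 10 in pup 2, is limited by depth.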
